A study of Homo sapiens with 16 samples.

Results

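The TMED genes encode the p24 proteins, small membrane proteins that cycle between the endoplasmic reticulum (ER) and the Golgi. The 9 members described here, TMED1, TMED2, TMED3, TMED4, TMED5, TMED7, TMED8, TMED9 and TMED10, were taken by gene symbol from the 58051 genes of the count table. Each member was found by its Ensembl identifier, and all 9 were detected in every library, with counts between 426 and 18831.

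p24 proteins have a luminal GOLD domain and a coiled coil, by which they assemble with each other, and a short cytoplasmic tail that binds the COPII coat on the way out of the ER and the COPI coat on the way back. They act as cargo receptors, best known for carrying proteins with a glycosylphosphatidylinositol (GPI) anchor, and they take part in building the vesicles themselves. The family is divided into subfamilies called alpha (TMED4, TMED9), beta (TMED2), gamma (TMED1, TMED3, TMED5, TMED7) and delta (TMED10), and complexes usually combine members of several subfamilies. TMED8 has a GOLD domain but is not placed in these subfamilies. XBP1s, the transcription factor made when IRE1α removes an intron from XBP1 mRNA under ER stress, is known to activate many genes of ER folding and ER-Golgi transport.

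RNA came from LNCaP, a prostate cancer cell line, so that each value describes 1 line. In the knockdown experiment, control siRNA (siCtrl) or siRNA against XBP1 (siXBP1) was transfected 2 days ahead. In the inhibitor experiment, the cells received DMSO (Vehicle) or 10 µM MKC8866, which blocks the RNase activity of IRE1α, for 24 h. Every one of the 16 libraries, 4 in each group, came from cells that had also been given 30 nM thapsigargin for 3 h, an agent that empties the ER calcium store and causes ER stress, and no unstressed library was compared. The treatments thus have separate controls and separate times of exposure, and the kind of inhibition and the experiment cannot be told apart. The study calls the 4 libraries of a group independent samples, and the labels do not say whether they came from separate cultures, so p-values measure the spread between these libraries, which may in part be technical.

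Between 28713607 and 34509488 fragments were counted per library. Libraries of 1 group differed by more than sampling noise in all 24 pairs (chi-square per degree of freedom from 2.39 to 19.3). siCtrl replicate 4 stood furthest from its group and had the lowest mitochondrial share of the series, 2.76% where the highest was 5.04%. Without it the count of TMED genes lower after knockdown was still 6. All 8 prostate luminal markers were above 1 CPM in every group (CPM, the usual depth-scaled count, here on library sizes adjusted by TMM), and their summed level was 3040 to 3140 CPM in siXBP1, 3590 to 3740 in siCtrl, 3590 to 3780 in Vehicle and 3920 to 4090 in MKC8866. Of 8 markers of other cell types only COL1A1 exceeded 1 CPM (24.7 to 36.6), while KRT5 stayed at or below 0.104 and PTPRC at or below 0.0345. In bulk RNA, fewer cells of a type and less RNA per cell cannot be told apart, and the part of the luminal shift in the results below was not tested.

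XBP1 itself was measured at 385.6, 421.6, 366.5 and 359.0 CPM in the siCtrl libraries and at 51.21, 54.19, 54.16 and 53.21 CPM in the siXBP1 libraries. Its level fell by 2.85 on the log2 scale (SE 0.0505, adjusted p = 2.92e-20). In the inhibitor experiment it ran from 482.6 to 539.0 CPM in Vehicle and from 536.6 to 619.4 CPM in MKC8866, with overlapping libraries and a log2 fold change of 0.20 (SE 0.0437, adjusted p = 0.00493). Gene counts do not separate spliced from unspliced XBP1 mRNA.

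Five-prime flanks of the TMED genes were examined for the sequence elements known to bind XBP1s or ATF6. RefSeq promoter windows of GRCh38.p14, from 250 bases before to 50 after a start site, were at hand for 7 members, all but TMED4 and TMED9. None of the 7 held the ERSE element (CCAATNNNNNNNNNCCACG), the ERSE-II element (ATTGGNCCACG) or the UPRE element (TGACGTGG), searched on both strands, and these elements occur in 0.0773%, 0.0544% and 0.730% of 34943 such windows. The CCACG box, which forms the end of ERSE and ERSE-II, was present in 6 of the 7 (TMED1, TMED2, TMED3, TMED5, TMED7 and TMED10) and in 38.1% of all windows. The CCAAT box was present in 4 of the 7 (TMED1, TMED2, TMED5 and TMED7) against 34.6% of all windows. ACGT, the core of many bZIP sites, was present in 4 of the 7 (TMED2, TMED3, TMED7 and TMED10) against 33.3%. In those same 4 windows CCACG ran into ACGT to give CCACGT, a string that overlaps both and was looked for only after the matches had been seen, and that occurs in 9.70% of all windows. Members were counted by gene and the shares of all by window. TMED1 had windows at different start sites, and its CCACG and CCAAT boxes lay in different windows. The CCACG of TMED3 began 29 bases after the start. A match is a description of these letters and not a bound site.

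The 30 bases around a box are shown for 4 members that were lower in both comparisons, because their flanks differ in the strand and the distance of that box. CCACG also lay in the windows of TMED1 and TMED3, which were not called in either comparison and are not shown. Whether the box and the fall go together was not tested. The stretches are written 5′ to 3′ on the strand of the gene. Capitals mark CCACGT, or CCACG for TMED5, read on either strand.
TMED10: cagaggtgagtcACGTGGgtccccccggtt
TMED2: gtgcctccctttACGTGGcagctgcgggag
TMED7: cctcgcgggcttCCACGTacgcactccaac
TMED5: gcttgccggggatCGTGGtcggcgagcgcg
The TMED10 stretch lies at chr14:75176624-75176653 (minus strand), with the box 29 to 24 bases before the RefSeq start. The TMED2 stretch is at chr12:123584445-123584474 (plus strand), with the box 95 to 90 bases before the start. For TMED7 the stretch is at chr5:115626115-115626144 (minus strand), with the marked box 96 to 91 bases before the start. TMED7 was the only one of the 4 with CCACG on the strand of the gene. Its window held further CCACG boxes on that strand, at −208, −196 and −162 from the start. For TMED5 the stretch is at chr1:93180611-93180640 (minus strand), with the box 214 to 210 bases before the start and no ACGT core.

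After XBP1 knockdown, 6 of the 9 TMED genes fell (TMED2, TMED4, TMED5, TMED7, TMED9 and TMED10), none rose and 3 were not called (TMED1, TMED3 and TMED8). Calls were made with edgeR's quasi-likelihood F test, where p adjusted over all genes tested by the Benjamini-Hochberg method was under 0.05. In the same comparison 18.2% of the 21021 genes tested were lower and 16.5% were higher. The median log2 fold change was −0.51 over the 9 members and 0.01 over all genes tested.

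After MKC8866, 5 of the 9 fell (TMED2, TMED5, TMED7, TMED9 and TMED10), TMED8 alone rose and 3 were not called (TMED1, TMED3 and TMED4). Of the 21045 genes tested, 3.11% were lower and 1.36% were higher. The median log2 fold change was −0.32 over the members and 0.00 over all genes tested. The 5 genes that fell in both experiments comprise the single beta member, the single delta member, 1 of the 2 alpha members and 2 of the 4 gamma members.

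**Figure D1:**
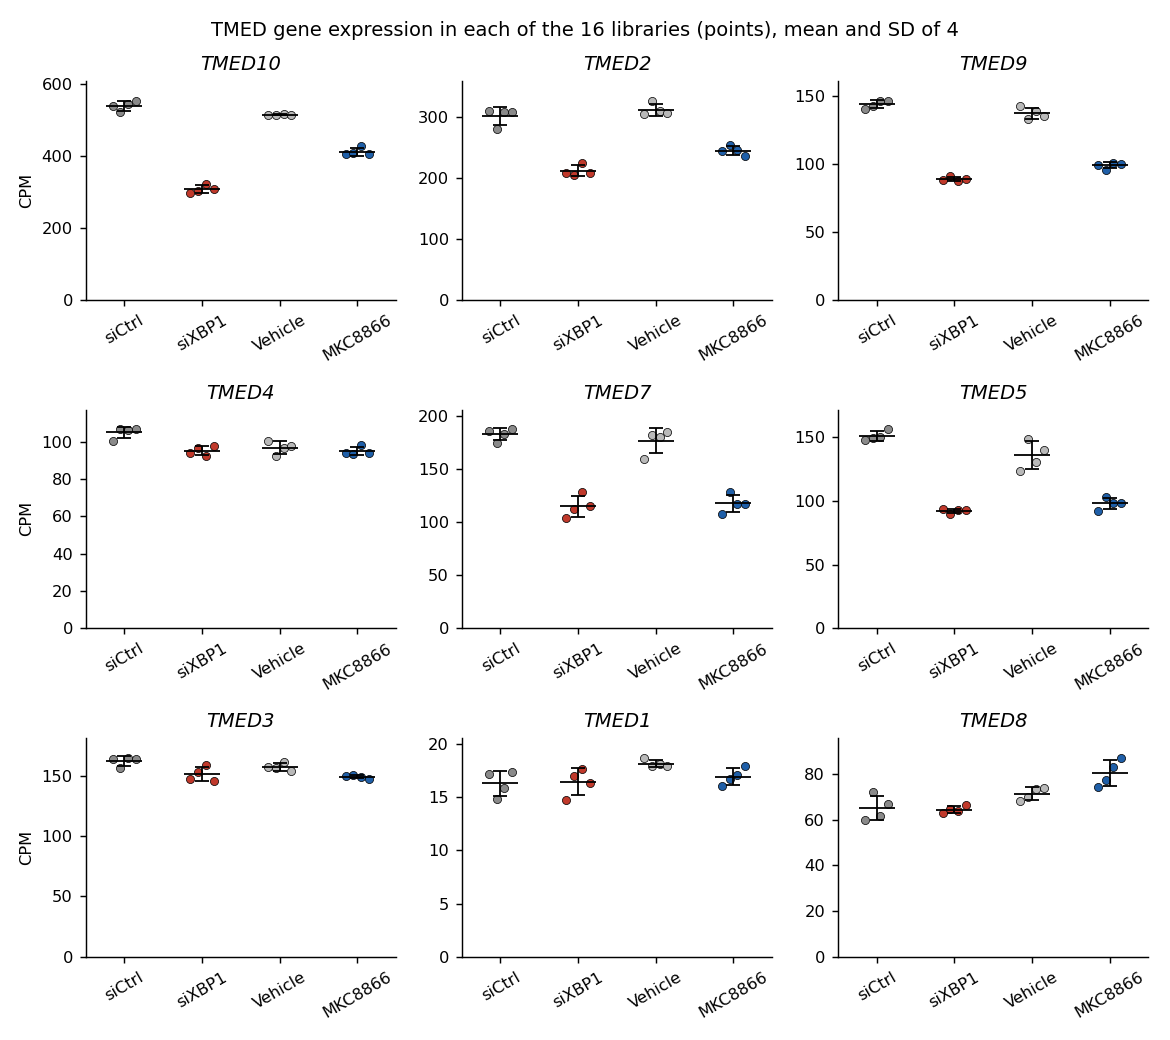
Level of each TMED gene (CPM, axis from 0) in the 4 libraries of siCtrl, siXBP1, Vehicle and MKC8866 (points), with the mean and SD of each group as black lines. In the TMED10, TMED2, TMED9, TMED7 and TMED5 panels all treated libraries sit below all libraries of their own control, while in the TMED1 panel the groups overlap in both experiments.

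TMED10, the delta member and the partner through which many p24 complexes are held together, had the largest fall of the family after knockdown. The gene (ENSG00000170348) spans chr14:75131470-75176631 on the minus strand. It was measured at 537.4, 520.0, 544.7 and 552.0 CPM in siCtrl and at 297.6, 300.9, 322.0 and 306.6 CPM in siXBP1. In the inhibitor experiment it was 513.2, 513.4, 515.8 and 512.8 CPM in Vehicle and 403.6, 407.4, 425.9 and 405.8 CPM in MKC8866. The lowest control library lay well above the highest treated library in both experiments. The log2 fold change was −0.81 (SE 0.039, adjusted p = 2.27e-13) after knockdown, a change of −43.0%. It was −0.32 (SE 0.0347, adjusted p = 6.3e-07) after MKC8866, a change of −20.0%.

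TMED2, the beta member, which binds COPI subunits and pairs with TMED10, fell in both experiments. The gene (ENSG00000086598) spans chr12:123584531-123598577 on the plus strand. The siCtrl libraries gave 310.7, 280.4, 308.4 and 309.0 CPM and the siXBP1 libraries 208.6, 205.1, 225.2 and 208.3 CPM. The Vehicle libraries gave 304.3, 326.5, 309.4 and 306.6 CPM and the MKC8866 libraries 243.7, 254.2, 245.9 and 235.6 CPM. Treated and control libraries did not overlap, although siCtrl replicate 2 was low. The log2 fold change was −0.51 (SE 0.0435, adjusted p = 3.2e-09) after knockdown and −0.35 (SE 0.0385, adjusted p = 9.41e-07) after MKC8866. Within a library, TMED10 had 1.78 ± 0.052 (SD, n = 4) times the counts of TMED2 in siCtrl and 1.45 ± 0.024 in siXBP1, with ranges of 1.73 to 1.85 and 1.43 to 1.47 that did not touch. In Vehicle and MKC8866 the ratio was 1.65 ± 0.052 and 1.68 ± 0.061, with overlapping ranges. Such ratios do not depend on the scaling of libraries, and they were chosen after the values had been seen.

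The alpha members parted. TMED9 (ENSG00000184840, chr5:177592158-177596124, plus strand) was measured at 140.1, 142.7, 145.7 and 146.1 CPM in siCtrl and at 87.84, 90.88, 87.47 and 88.71 CPM in siXBP1. It was 142.1, 132.5, 138.5 and 134.9 CPM in Vehicle and 99.17, 95.73, 100.6 and 100.1 CPM in MKC8866. The groups were far apart in both experiments relative to the spread of their libraries. The log2 fold change of TMED9 was −0.70 (SE 0.0388, adjusted p = 2.83e-12) after knockdown and −0.47 (SE 0.0406, adjusted p = 1.62e-08) after MKC8866.

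TMED4, the other alpha member (ENSG00000158604, chr7:44577894-44582287, minus strand), ran from 100.6 to 106.6 CPM in siCtrl and from 92.25 to 97.62 CPM in siXBP1. These ranges did not overlap, and the log2 fold change was −0.14 (SE 0.0406, adjusted p = 0.00853), a change of −9.37%. In Vehicle (92.3 to 100.5 CPM) and MKC8866 (93.65 to 98.33 CPM) the libraries overlapped, and the log2 fold change was −0.03 with a 95% interval of −0.11 to 0.06 (adjusted p = 0.85). The ratio of TMED9 to TMED4 counts within a library was 1.37 ± 0.022 in siCtrl and 0.933 ± 0.017 in siXBP1, so that TMED9 went from the more to the less counted of the pair. It was 1.42 ± 0.026 in Vehicle and 1.04 ± 0.022 in MKC8866, again with ranges that did not overlap.

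Among the gamma members, TMED7 and TMED5 fell in both experiments. TMED7 (ENSG00000134970, chr5:115613508-115632992, minus strand) was measured at 185.8, 174.7, 182.8 and 187.2 CPM in siCtrl and at 103.7, 112.1, 128.1 and 115.1 CPM in siXBP1. It was 159.2, 182.0, 180.2 and 184.6 CPM in Vehicle and 108.0, 128.2, 117.4 and 116.6 CPM in MKC8866. Vehicle replicate 1 was the lowest control and still lay above every MKC8866 library. TMED7 had a log2 fold change of −0.67 (SE 0.0515, adjusted p = 6.24e-10) after knockdown and the largest fall of the family after MKC8866, −0.58 (SE 0.0513, adjusted p = 1.99e-08), a change of −33.3%.

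TMED5 (ENSG00000117500, chr1:93149742-93180728, minus strand) was measured at 147.8, 149.0, 150.3 and 156.0 CPM in siCtrl and at 93.68, 90.01, 92.42 and 92.73 CPM in siXBP1. It was 123.5, 148.8, 130.3 and 139.9 CPM in Vehicle and 92.05, 102.8, 98.29 and 98.48 CPM in MKC8866. The Vehicle libraries of TMED5 were more scattered (SD 11.1 CPM) than its siCtrl libraries (SD 3.65 CPM), and neither control overlapped its treated group. The log2 fold change was −0.71 (SE 0.0393, adjusted p = 2.45e-12) after knockdown and −0.47 (SE 0.0514, adjusted p = 7.73e-07) after MKC8866.

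TMED3 and TMED1 were not called in either comparison. TMED3 (ENSG00000166557, chr15:79311062-79427432, plus strand) ran from 156.5 to 164.9 CPM in siCtrl and from 146.1 to 159.1 CPM in siXBP1, with a log2 fold change of −0.10 and a 95% interval of −0.18 to −0.02 (adjusted p = 0.0584). It passed the threshold with all 16 libraries in 1 fit (adjusted p = 0.027) and without siXBP1 replicate 3 (adjusted p = 0.0275). In the inhibitor experiment TMED3 ran from 153.8 to 161.8 CPM in Vehicle and from 147.7 to 150.3 CPM in MKC8866, without overlap, and its log2 fold change of −0.07 (95% interval −0.15 to 0.00) had an adjusted p of 0.377. Within a library, TMED7 had 1.12 ± 0.014 times the counts of TMED3 in siCtrl and 0.757 ± 0.048 in siXBP1, and 1.12 ± 0.082 in Vehicle and 0.787 ± 0.055 in MKC8866. TMED5 stood at 0.929 ± 0.026 of TMED3 in siCtrl and 0.610 ± 0.030 in siXBP1, and at 0.863 ± 0.081 in Vehicle and 0.656 ± 0.030 in MKC8866. In each of these 4 settings the treated and control ranges were apart.

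TMED1 (ENSG00000099203, chr19:10832438-10836318, minus strand) was the least counted member, at 14.82 to 17.35 CPM in siCtrl, 14.71 to 17.69 in siXBP1, 17.9 to 18.69 in Vehicle and 16.04 to 17.91 in MKC8866. Its log2 fold change was 0.01 (95% interval −0.14 to 0.16, adjusted p = 0.916) after knockdown and −0.10 (95% interval −0.22 to 0.03, adjusted p = 0.492) after MKC8866. The direction after knockdown turned to −0.02 without siCtrl replicate 2 or without siXBP1 replicate 3. TMED1 shares 776 bases, 51.3% of its merged exons, with DNM2 on the opposite strand, and fragments that overlap both genes were not counted.

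TMED8 (ENSG00000100580, chr14:77335021-77377109, minus strand), which stands outside the subfamilies, was measured at 68.16, 69.96, 73.53 and 73.95 CPM in Vehicle and at 74.52, 77.54, 83.08 and 87.08 CPM in MKC8866. The highest Vehicle library was just under the lowest MKC8866 library. The log2 fold change was 0.18 (SE 0.0499, adjusted p = 0.0433). This call was lost with all 16 libraries in 1 fit (adjusted p = 0.0536) and in 6 of the 8 fits that left out 1 library, namely each Vehicle library and MKC8866 replicates 3 and 4, where the adjusted p was 0.0655 to 0.218. After knockdown TMED8 ran from 63.15 to 66.32 CPM, inside the siCtrl range of 60.07 to 71.98 CPM, with a log2 fold change of −0.02 (95% interval −0.13 to 0.09, adjusted p = 0.845) whose sign turned without siCtrl replicate 2 (0.04) or siCtrl replicate 4 (0.00).

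**Figure D2:**
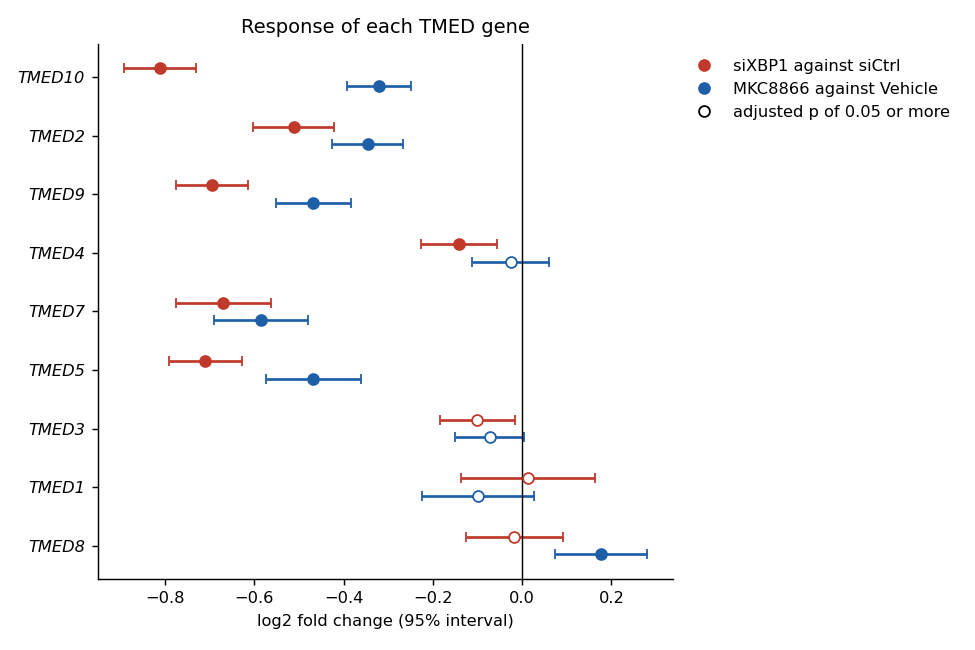
Log2 fold change of each TMED gene with its 95% interval, after XBP1 knockdown (red) and after MKC8866 (blue), with open points where the adjusted p was 0.05 or more. TMED10 is furthest left after knockdown (−0.81), TMED7 is furthest left after MKC8866 (−0.58), and TMED8 after MKC8866 is the only filled point right of 0.

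The difference between the responses was tested as an interaction over the 16 libraries, on 20357 genes, of which 12.7% had the lower and 10.6% the higher value after knockdown. For 4 of the 9 members (TMED2, TMED5, TMED9 and TMED10) the knockdown value was lower, and for none was it higher. The median difference was −0.16 over the members and 0.01 over all genes tested. TMED10 had the largest difference, −0.49 on the log2 scale (SE 0.0496, adjusted p = 7.64e-09). TMED5 differed by −0.24 (SE 0.0662, adjusted p = 0.00782) and TMED9 by −0.22 (SE 0.0522, adjusted p = 0.00173). TMED2 differed by −0.16 (SE 0.0577, adjusted p = 0.0383), and that call was lost without a filter on low counts (adjusted p = 0.0587) and in 11 of the 16 fits that left out 1 library (adjusted p up to 0.0822). These 11 left out siCtrl replicate 1, 3 or 4, siXBP1 replicate 1, 2 or 4, Vehicle replicate 1, 3 or 4, or MKC8866 replicate 2 or 3. For TMED7 the difference was −0.08, with a 95% interval of −0.24 to 0.08 (adjusted p = 0.503). TMED8 gave −0.19 with an interval of −0.35 to −0.04 (adjusted p = 0.0653), and it passed the threshold without siCtrl replicate 1 (adjusted p = 0.0256), siCtrl replicate 3 (adjusted p = 0.0453) or MKC8866 replicate 1 (adjusted p = 0.0317).

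To compare levels between genes, CPM were divided by the kilobases of the merged exons in the deposited table, which gives FPKM, CPM per kilobase. On this scale the order TMED10, TMED2, TMED9, TMED7, TMED4 held in every group, and the libraries of neighbours in that stretch of the order did not overlap. In siCtrl, TMED10 was at 108.3 ± 2.76 FPKM (SD, n = 4), TMED2 at 78.88 ± 3.79, TMED9 at 58.87 ± 1.15, TMED7 at 46.89 ± 1.44 and TMED4 at 27.85 ± 0.766. The rest were lower. TMED5 was at 16.0 ± 0.387, TMED1 at 10.77 ± 0.786, TMED8 at 8.375 ± 0.690 and TMED3 at 8.344 ± 0.206, the last pair with overlapping libraries. In siXBP1, TMED10 was at 61.67 ± 2.18 and TMED2 at 55.3 ± 2.36, while TMED5 (9.786 ± 0.165) came below TMED1 (10.87 ± 0.846) with overlapping libraries. In Vehicle the order was that of siCtrl, without any overlap between neighbours, and TMED10 was at 103.3 ± 0.270. In MKC8866, TMED10 was at 82.56 ± 2.07 and TMED7 at 30.18 ± 2.13, and the libraries of TMED1 (11.19 ± 0.519), TMED5 (10.39 ± 0.469) and TMED8 (10.35 ± 0.721) overlapped between neighbours. The TMED1 level rests on a length of which 51.3% is shared with DNM2, where fragments were not counted. Without the bases shared with other genes, an alternative chosen after seeing the data, TMED1 was above TMED5 in every group. It was then at 22.1 FPKM against 17.24 in siCtrl and at 24.64 against 15.5 in Vehicle. The change of order between TMED5 and TMED1 thus depends on the length used.

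The place of TMED3 rests on its length. Its merged exons span 19470 bases but its canonical transcript in GENCODE v44 only 1418, and with canonical lengths it ranked 3rd in siCtrl and Vehicle and 1st in siXBP1 and MKC8866. Which TMED3 transcripts LNCaP makes was not analysed here. Other places moved with the length too, by group means. With canonical lengths TMED2 was above TMED10 in siXBP1 only (83.26 and 74.66 FPKM). TMED4 was then above TMED9 and TMED7 in siXBP1 (41.47 against 34.85 and 29.29) and in MKC8866 (41.4 against 38.84 and 30.0). Without the bases shared with other genes, TMED7 was above TMED9 in siCtrl (61.71 and 58.87), siXBP1 and Vehicle, but not in MKC8866.

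Summed over the 9 members, the level was 364.3 ± 8.77 FPKM in siCtrl and 244.8 ± 7.25 in siXBP1, a change of −32.8%. It was 355.5 ± 3.40 in Vehicle and 282.0 ± 5.16 in MKC8866, a change of −20.7%. With canonical lengths the same changes were −27.4% and −17.3%. TMED10 made up 29.7% ± 0.0574 of the family level in siCtrl and 25.2% ± 0.207 in siXBP1, whereas in Vehicle and MKC8866 it made up 29.1% ± 0.271 and 29.3% ± 0.446. With canonical lengths its share was lower in both treated groups. It was then 23.5% in siCtrl and 18.4% in siXBP1, and 23.0% ± 0.189 in Vehicle and 22.2% ± 0.374 in MKC8866. The TMED4 share went from 7.65% ± 0.287 to 10.3% ± 0.474 after knockdown and from 7.23% ± 0.321 to 8.94% ± 0.161 after MKC8866. The TMED4 level itself did not rise, at 27.85 FPKM in siCtrl, 25.24 in siXBP1, 25.69 in Vehicle and 25.2 in MKC8866. Its share rose because the summed level fell. The TMED2 share was 21.6% ± 0.635 in siCtrl, 22.6% ± 0.509 in siXBP1, 22.9% ± 0.590 in Vehicle and 22.7% ± 0.620 in MKC8866.

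**Figure D3:**
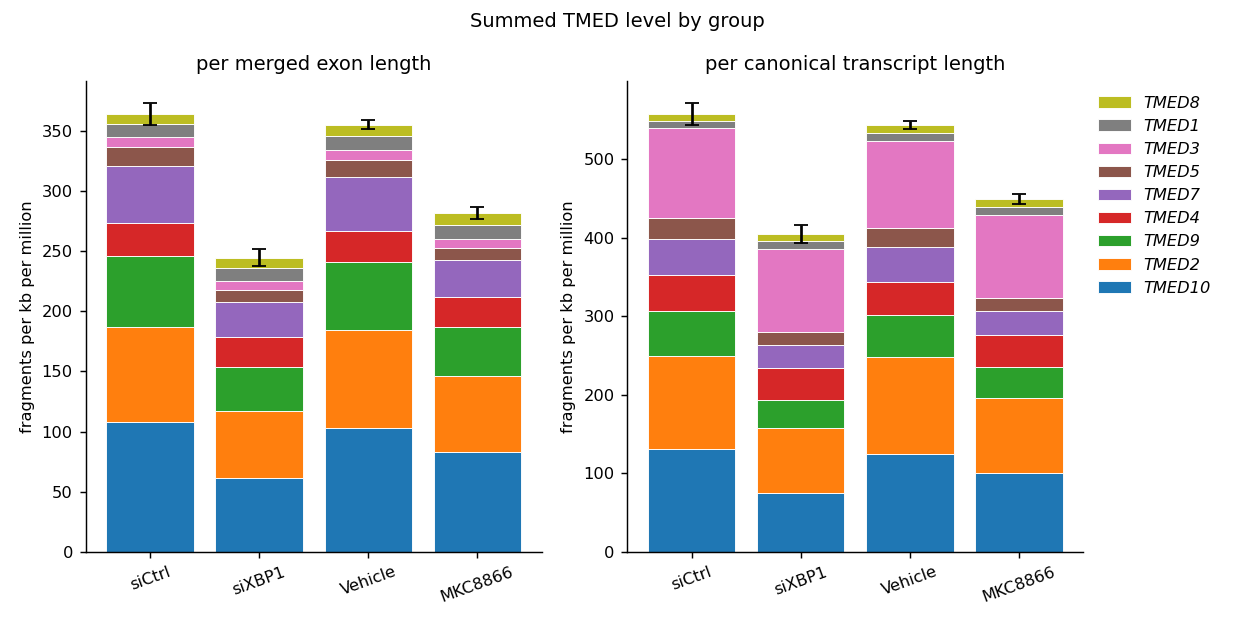
Summed level of the 9 TMED genes in each group (stacked bars from 0, FPKM, mean of 4 libraries, error bars the SD of the sum), with merged exon lengths on the left and canonical transcript lengths on the right. The siXBP1 bar is the lowest in both panels (244.8 and 404.7), and TMED3 takes a much larger part of every bar on the right.

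Other rows of the table that carry a TMED name were at or near 0. TMED6, a further p24 gene, had 6 to 27 counts per library, TMED11P 2 to 23, TMED10P2 3 to 16, and TMED2P1 had 0 in every library, which allows up to 3 counts. TMED10P1 also had 0 in every library. All 655 of its bases lie in ZNF252P, and fragments over both genes were not counted, so its 0 says nothing of its level. No window of 150 bases of a member's canonical transcript occurred in another member, so reads of that length could tell the members apart. TMED7 shares 935 bases, 24.0% of its merged exons, with the readthrough gene TMED7-TICAM2 on the same strand (0 to 9 counts) and 225 with TICAM2-AS1, and fragments over both genes were not counted. Of the merged exons of TMED7-TICAM2, 96.6% is shared with other genes, so its counts say little of its level. TMED2 shares 7.47% of its exon length with TMED2-DT and TMED5 shares 7.16% with CCDC18, each on the opposite strand. TMED3, TMED4, TMED8, TMED9 and TMED10 share none.

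The genes that act with p24 proteins were described from 4 lists, whose counts stand beside the shares of all genes tested, 18.2% lower and 16.5% higher after knockdown and 3.11% lower and 1.36% higher after MKC8866. The COPII list of 12 genes, which drive exit from the ER, includes PREB and SEC16A, which are not subunits of the coat. Of these 12, 11 fell after knockdown (median log2 fold change −0.59) and 8 after MKC8866 (median −0.24), and none rose in either. The largest fall in both was that of SEC24D, a cargo-binding subunit, with a log2 fold change of −1.89 (SE 0.0444, adjusted p = 1.72e-18) after knockdown and −1.05 (SE 0.0393, adjusted p = 3.06e-15) after MKC8866. The COPI list, of genes that serve return to the ER, includes ARF1, also not a subunit of the coat. Of its 9 genes tested out of 10, 7 fell after knockdown (median −0.49) and 7 after MKC8866 (median −0.28), and none rose. COPA, the alpha subunit of the coat, had the largest fall of this list after knockdown (−1.16, adjusted p = 2.3e-16) and ARCN1, the delta subunit, after MKC8866 (−0.38, adjusted p = 5.2e-08).

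Among 14 other cargo receptors of the ER and Golgi, 7 fell after knockdown and 5 after MKC8866, and none rose, with medians of −0.13 in both. KDELR2, which returns proteins with a KDEL signal, fell most after knockdown (−1.04, adjusted p = 8.3e-14), and LMAN1, a lectin that carries glycoproteins, after MKC8866 (−0.49, adjusted p = 6.76e-09). Of 9 genes that attach or remodel GPI anchors, the signal by which p24 proteins know much of their cargo, 3 fell and 1 rose after knockdown (median −0.06) and none was called after MKC8866 (median 0.04), counts of few genes that lie near those shares. MPPE1, which remodels the anchor before exit from the ER, had a log2 fold change of −0.23 (adjusted p = 0.0118), and PIGT, a subunit of the transamidase that attaches the anchor, one of 0.33 (adjusted p = 7.91e-06). Over the 44 genes tested of the 4 lists, 28 fell and 1 rose after knockdown and 20 fell and none rose after MKC8866, with medians of −0.27 and −0.15, beside −0.51 and −0.32 over the TMED genes. In the interaction, 21 of these 44 genes had the lower and 2 the higher value after knockdown, beside 12.7% and 10.6% of all genes tested. COPA (−0.88, adjusted p = 2.23e-14), SEC24D (−0.84, adjusted p = 7.18e-13) and KDELR2 (−0.64, adjusted p = 1.26e-08) had the largest differences of their lists, PIGT (0.25, adjusted p = 0.00493) and ERGIC3 (0.15, adjusted p = 0.0493) were the 2 with the higher value, and PIGS differed by −0.18 (adjusted p = 0.0419).

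**Figure D4:**
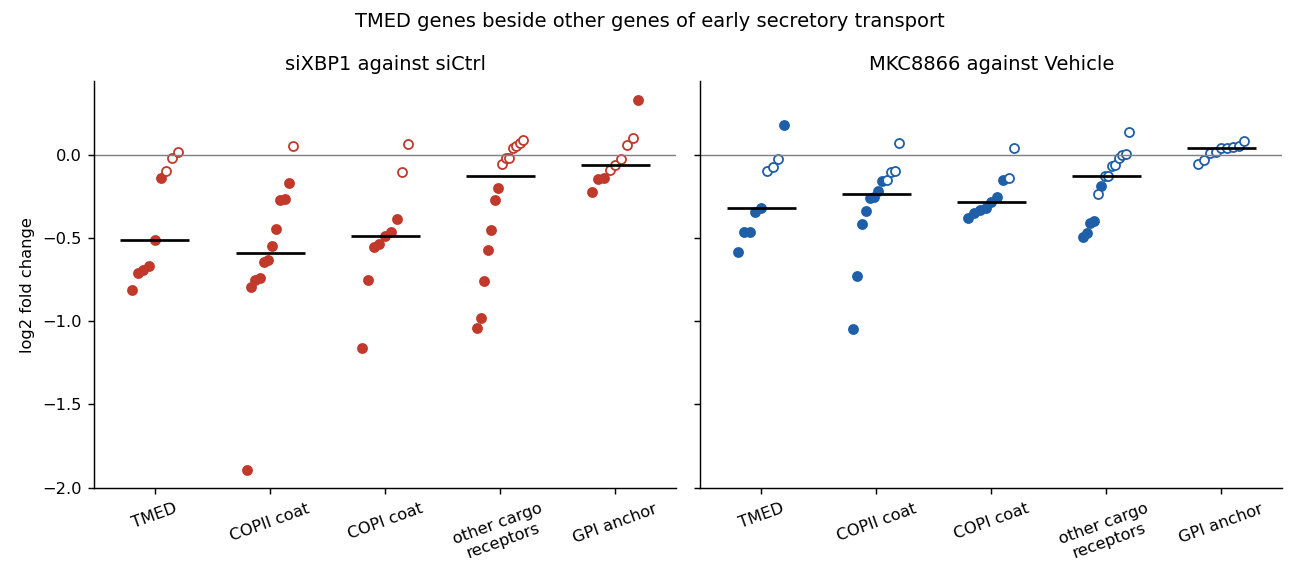
Log2 fold change of the 9 TMED genes and of 4 lists of genes of early secretory transport, after XBP1 knockdown (left, red) and after MKC8866 (right, blue), each point 1 gene, filled where the adjusted p was under 0.05, with the median of each list as a line. SEC24D is the lowest point of both panels (−1.89 and −1.05), and the GPI anchor genes lie around 0 after MKC8866.

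The pattern of the family over the 16 libraries was compared with that of 15032 genes with a mean of at least 1 CPM, as the Pearson correlation of log2 CPM centred within each experiment. The most alike were OSTC (r = 0.996), a subunit of the oligosaccharyltransferase, SEC61B (r = 0.991), a subunit of the ER translocon, LIPA (r = 0.991), the lysosomal acid lipase, SLC39A7 (r = 0.990), a zinc transporter, and SRPRB (r = 0.989), a subunit of the signal recognition particle receptor. OSTC had log2 fold changes of −0.96 and −0.61 and LIPA of −0.59 and −0.33 after knockdown and MKC8866. The 16 points share 2 treatments and their controls, so r mostly ranks genes by how they differ between groups. Among the members, r with the mean of the family, in which each is included, was 0.975 to 0.982 for TMED2, TMED5, TMED7, TMED9 and TMED10. It was 0.841 for TMED3, 0.754 for TMED4, 0.280 for TMED1 and −0.255 for TMED8.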

How the data were processed

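RNA-seq libraries of LNCaP cells were sequenced as 150-base pairs from a stranded kit and, per the labels and the methods of the study, aligned to hg38 with STAR 2.5.2a. Counts were made with featureCounts 1.5.0 on an Ensembl GRCh38 annotation. The values the authors deposited are raw counts of fragments per gene, without normalization, without strand, and without multimapping fragments or fragments over 2 genes, beside each gene's merged exon length. Of 58051 genes, 56948 were matched to a symbol. Depth was 28713607 to 34509488 fragments per library. Replicates varied with a biological coefficient of 5.40% (knockdown) and 4.97% (inhibitor).

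Each treatment was tested against its own control in edgeR 4.0.16 (R 4.3.3; TMM, quasi-likelihood F test, two-sided) keeping a gene where each group had a library above 5 counts, and called where p, adjusted over all genes tested by the Benjamini-Hochberg method, was under 0.05. Standard errors came from the log2 fold change and its F statistic. The interaction was tested over 16 libraries. Fits were tested on simulated data. CPM use TMM-scaled library sizes, and levels per length divide them by the merged exon length. Tables were made with numpy 2.4.6 and pandas 2.3.3, and figures with matplotlib 3.10.9.

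The members and lists were chosen with earlier results of these data known. Besides the members and XBP1, the rule for named genes took other TMED genes for their level, overlapping genes, the called gene with the largest fall and rise of each list and comparison, and the 5 genes most alike in pattern. Alternatives were DESeq2 1.42.0, its size factors in edgeR, all 16 libraries fitted together, a replicate block, omission of the count filter or a minimum of 10 counts per library, other lengths, and leaving out each library.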

Additional observations from a re-analysis of the deposited data

Results flagged for a closer look

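In 4 of 36 sets of 4 libraries (9 members in 4 groups) 1 library lay far from the other 3 by Dixon's criterion, which chance alone gives in about 1 set of 20. They were the lowest siCtrl library of TMED2 (280.4 CPM), of TMED3 (156.5 CPM) and of TMED4 (100.6 CPM), and the highest MKC8866 library of TMED4 (98.33 CPM).

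For 4 members the response to knockdown differed from the response to MKC8866 in edgeR's interaction test, by −0.16 on the log2 scale for TMED2 (lost in 11 of 16 fits without 1 library), −0.24 for TMED5, −0.22 for TMED9 and −0.49 for TMED10. The kind of inhibition and the experiment cannot be told apart in these differences.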

How the results depend on the processing

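The calls of TMED2, TMED5, TMED7, TMED9 and TMED10 in both comparisons, and of TMED4 after knockdown, held in every alternative run. Leaving out 1 library at a time, the TMED genes called lower were 6 to 7 after knockdown, 5 to 5 after MKC8866 and 3 to 5 in the interaction, and those called higher after MKC8866 were 0 to 1. With all 16 libraries in one fit, 7 were lower after knockdown and 0 were higher after MKC8866. The fold changes after knockdown ran from −0.019 to 0.069 for TMED1 and from −0.049 to 0.045 for TMED8, which includes reversals at values near 0. Of the listed transport genes, leaving out 1 library gave 26 to 28 lower after knockdown and 18 to 21 after MKC8866, and 1 to 2 and 0 to 1 higher. DESeq2 gave 23 lower after MKC8866 and no filter on low counts gave 22. DESeq2 and the filter of at least 10 counts each gave 2 higher after knockdown. No filter, and all 16 libraries in one fit, each gave 1 higher after MKC8866. The causes were not tested.

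With canonical transcript lengths the family total was 557.6, 404.7, 543.3 and 449.4 FPKM in siCtrl, siXBP1, Vehicle and MKC8866, and the TMED10 share 23.5%, 18.4%, 23.0% and 22.2%. The TMED2 share was then 21.3% in siCtrl, 20.6% in siXBP1, 22.6% in Vehicle and 21.4% in MKC8866. It was thus lower after knockdown, whereas with merged exon lengths it was higher (21.6% in siCtrl and 22.6% in siXBP1). Without the bases shared with other genes, an alternative chosen after seeing the data, the totals were 398.0, 270.7, 390.1 and 309.3 FPKM. The TMED10 shares were then 27.2%, 22.8%, 26.5% and 26.7%, and the TMED2 share 21.4% in siCtrl and 22.1% in siXBP1. Every total was still lower in the treated group.

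The groups of each experiment share replicate numbers. Same-numbered libraries deviated together with correlations of 0.087 to 0.325 (mean 0.198) in the inhibitor experiment and 0.009 to 0.064 (mean 0.042) in the knockdown experiment. Libraries of other numbers gave −0.218 to 0.127 (mean −0.066) and −0.14 to 0.122 (mean −0.014). Each gene was centred on its group mean, so the means over other numbers largely follow from those over same numbers. Vehicle replicate 3 correlated better with MKC8866 replicate 1 (0.127) than with replicate 3. The numbers were therefore not taken as pairs, although the inhibitor pairs were on average more alike than the others. With the replicate number as a block, 1484 genes were lower and 1262 higher after MKC8866 (654 and 287 without it). The TMED counts under the block were 6 lower after knockdown, 5 lower and 1 higher after MKC8866, and 5 lower in the interaction, where TMED8 passed (−0.19, edgeR adjusted p = 0.0142), and for TMED8 after MKC8866 the block gave an adjusted p of 5.11e-05 with edgeR. Listed transport genes called after MKC8866 were 26 lower and 1 higher under the block (20 and 0 without it). It changed no other call of a TMED gene. Depth limits TMED1 most, at 426 to 619 counts per library.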
